A study of Mus musculus with 8 samples.

Results

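Immediate early genes are transcribed within minutes of a stimulus without new protein synthesis. The 10 described here were chosen by name, as the classic transcription factor genes of this class, among 23284 genes listed. They are the Fos genes Fos and Fosb, the Jun genes Jun, Junb and Jund, the early growth response genes Egr1, Egr2 and Egr3, Atf3 and Ier2. Fos proteins pair with Jun proteins through leucine zippers to form AP-1, which binds TGACTCA and related sites. EGR proteins bind GC-rich sites through zinc fingers, and their genes are known to respond quickly in vessel wall and myeloid cells to growth factors, stretch and low oxygen.

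RNA was measured in 8 samples of lung from C57BL/6 recipient mice, all wild type (WT), that had received donor bone marrow and then spent 3 days in hypoxia. Donor marrow lacked the neuronal, inducible and endothelial nitric oxide synthases (triply n/i/eNOS-/-) in 4 samples, the NOS-null group, and was WT in the other 4, the WT group. The recipient's own lung cells kept the 3 genes in both groups, and the labels describe no separation of donor from recipient cells. No normoxic lung enters the comparison, so the values are levels at 1 time under hypoxia and measure no induction.

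Values are read counts that the authors scaled between libraries, called scaled reads, and summed to 7767065 to 8625142 per library. In every library the values of the 10 genes were whole multiples of the value of 1 read, within 0.05. Of the deleted genes, Nos2 stood at 13.3 to 43.5 scaled reads in the NOS-null group and 87.4 to 115 in the WT group, while Nos3 ranged from 171 to 219 over all 8 and Nos1 was at 0 in 7 libraries. The 11 lung markers, surfactant and club cell genes among them, made up 4.01 to 5.08% of all scaled reads, and no gene of that list was at 0. NOS-null replicate 1 stood apart most. Its 9 neutrophil markers in the table summed to 94769.5 scaled reads, against 5656 to 10438 in NOS-null replicates 2 to 4 and 2292 to 5870.3 in the WT group. Replicate 2 also differed from replicates 3 and 4 of its group. Macrophage and monocyte markers summed to 31267 and 23693 in NOS-null replicates 1 and 2, against 12829 and 15481 in replicates 3 and 4. Values without NOS-null replicate 1 are given beside the genes it moved most.

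Promoters of this class are known for binding sites of factors that signalling activates. Serum response factor binds the CArG box (CC, a run of A or T, GG), CREB and ATF proteins bind TGACGTCA, and AP-1 binds TGACTCA. RefSeq windows on GRCm38.p6, from 250 bases before to 50 after a transcript start, were found for 7 of the 10 genes. Egr1, Egr3 and Ier2 had no window. The 4 stretches that follow are the 120 bases before a transcript start of each gene with a searched motif upstream of that start. They are shown because they hold the matches described next, with the motif in capitals, 5′ to 3′ on the strand of the gene.
Fos (chr12:85473770-85473889, plus strand): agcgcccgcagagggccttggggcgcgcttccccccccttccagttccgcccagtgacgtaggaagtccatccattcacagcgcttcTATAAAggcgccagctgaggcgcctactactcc
Fosb (chr7:19310046-19310165, minus strand): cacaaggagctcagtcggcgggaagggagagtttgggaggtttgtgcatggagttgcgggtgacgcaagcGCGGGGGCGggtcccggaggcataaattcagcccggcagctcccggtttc
Jun (chr4:95052223-95052342, minus strand): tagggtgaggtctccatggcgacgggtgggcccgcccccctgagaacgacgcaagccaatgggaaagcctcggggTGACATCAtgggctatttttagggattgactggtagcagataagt
Egr2 (chr10:67537446-67537565, plus strand): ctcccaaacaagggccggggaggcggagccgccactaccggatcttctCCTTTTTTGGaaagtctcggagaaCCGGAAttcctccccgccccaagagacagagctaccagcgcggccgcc

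The capitals mark a TATA box (TATAAA) in Fos, an EGR-type site (GCGGGGGCG) in Fosb, the AP-1 and ATF type site TGACATCA in Jun, and a CArG box followed by an ETS-type core (CCGGAA) in Egr2. The search covered both strands and also included TGACGTCA, TGACTCA and GCGTGGGCG, none of which was found in the windows of the 7 genes. Among all 32851 windows of the table, 13.6% held TATAAA, 2.91% GCGGGGGCG, 3.62% TGACATCA, 1.63% a CArG box and 14.9% CCGGAA. The shares for the other motifs were 1.79% for TGACGTCA, 5.20% for TGACTCA and 0.612% for GCGTGGGCG. Egr2 has 5 windows for its several starts, and 3 of the others, which overlap, hold a further CArG box, CCATATATGG. It is the same genomic site in these 3 windows. The window of the Egr2 stretch shown also holds CCGGAA at −129 to −124 and, on the other strand, at −131 to −126. Both lie upstream of that stretch. The Egr2 window nearest the 5′ end of the gene held no match, and the stretch shown precedes a later start. In the window of Junb, TATAAA lay at bases 1 to 6 counted from the transcript start, so not upstream of it, and no stretch is shown. A match describes these letters and is not evidence of binding, and the windows of Jund and Atf3 held no match.

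Per transcript length the Jun genes led in both groups. In the authors' FPKM values (reads scaled to transcript length and library size) the mean over the 8 libraries was 110.9 for Jund, 57.2 for Jun, 49.7 for Junb and 38.8 for Ier2. Fos followed at 19.2 FPKM, then Atf3 at 7.61, Egr1 at 6.60, Egr2 at 1.93, Fosb at 0.853 and Egr3 at 0.234. Jund, the Jun gene known for steady expression in resting cells, lay above Jun in 8 of 8 libraries, by 1.64 to 2.53 times. Neighbours whose ranges overlapped were Jun and Junb, Junb and Ier2, Atf3 and Egr1, and Egr2 and Fosb. Within the same library the first of each pair was higher in 7, 7, 6 and 7 of 8 libraries, so no pair kept 1 order throughout. Fos made up 93.8 to 96.9% of the FPKM sum of Fos and Fosb in every library.

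**Figure D1:**
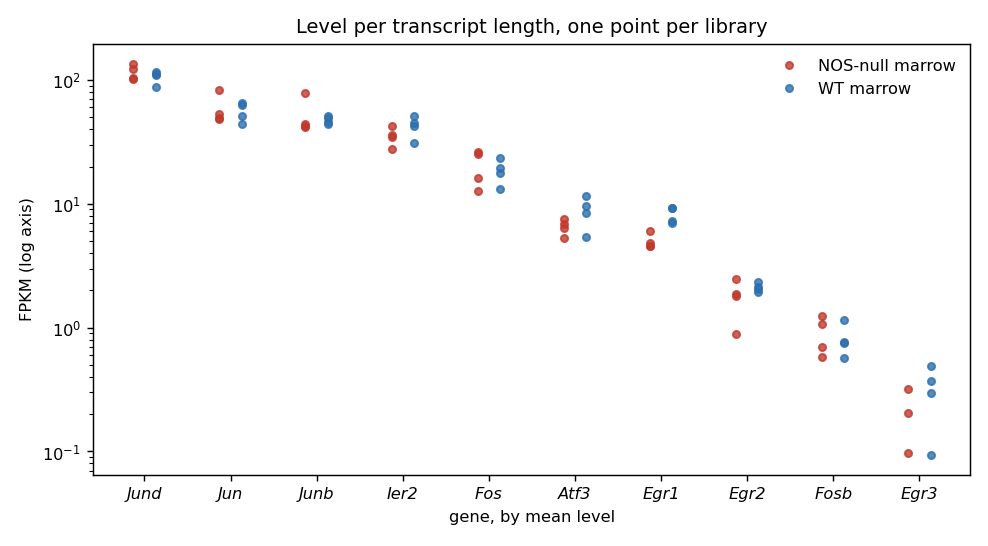
Level of each gene in FPKM on a log axis, 1 point per library, red for NOS-null marrow and blue for WT marrow, genes ordered by mean. Levels run from Jund (mean 110.9) to Egr3 (mean 0.234), and Egr3 in NOS-null replicate 1, listed at 0, is not drawn.

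Of the 10 genes 9 passed the filter of 10 scaled reads in at least 4 libraries, each with at least 10 in all 8, and were tested with limma. Egr1 was lower in the NOS-null group and the other 8 did not pass a Benjamini-Hochberg adjusted p of 0.05. None was higher. At an unadjusted p under 0.05 the count higher was also 0 and the count lower 1, beside 26.6% of all tested genes in either direction. The background over 14008 tested genes was 4.05% called, 1.87% called higher and 2.18% called lower, and 1 gene of 9 is too small a count to set apart from it. The median log2 change of the 9 was 0.04 and that of all tested genes 0.00. Groups did not overlap for 1 of the 9, Egr1, against 17.1% of tested genes in either direction and 9.29% lower. Log2 changes, given with a standard error (SE), are NOS-null minus WT in log2(scaled reads + 1), and adding 1 shrinks the changes of low genes. The labels number the samples of each group without saying that each is a separate animal, so the p-values reflect only the spread among these samples, which may be technical.

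**Figure D2:**
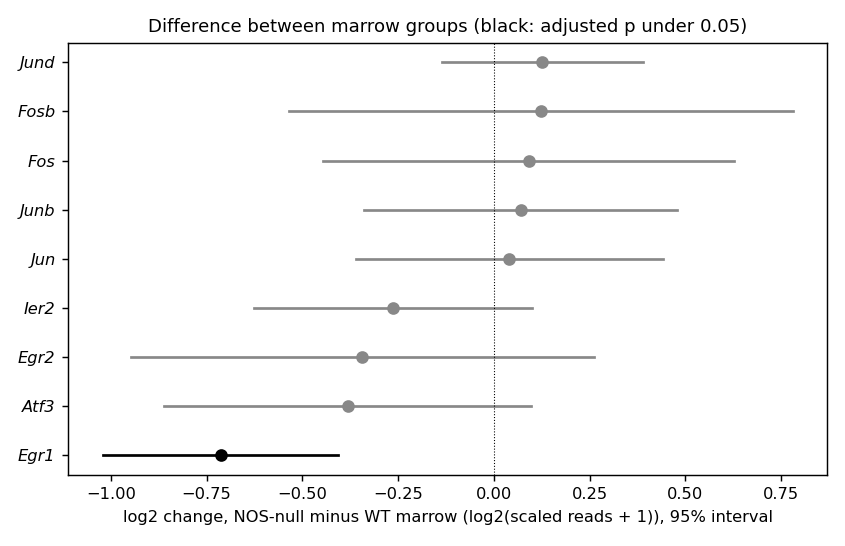
Log2 change between marrow groups (NOS-null minus WT) for the 9 tested genes, with 95% intervals from limma. The interval of Egr1, drawn in black, runs from −1.02 to −0.41, and those of the other 8 include 0.

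EGR genes encode zinc finger activators that are held in check by the corepressors Nab1 and Nab2. Egr1 (chromosome 18, 34859823 to 34864984, GRCm38) stood at 115, 110.4, 109 and 145 scaled reads in NOS-null replicates 1 to 4. In WT replicates 1 to 4 it stood at 221, 169.5, 175 and 224. Every NOS-null value lay below every WT value. The means were 119.8 ± 16.7 and 197 ± 28.9 (SD, n = 4), a log2 change of −0.71 (SE 0.14, 95% interval −1.02 to −0.41, limma adjusted p = 0.0280), or 39.0% lower on that scale. Egr1 ranked 198 of the tested genes by p. Leaving out NOS-null replicate 2 ended the call (adjusted p = 0.0879), as did leaving out WT replicate 1, 2, 3 or 4 (adjusted p = 0.103, 0.0545, 0.0605 and 0.0608). It was also lost without NOS-null replicates 1 and 2 together (log2 change −0.63, adjusted p = 0.102). With 1 of the 8 libraries left out in turn the log2 change ran from −0.81 to −0.65.

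Summed levels of several marker lists differed between the groups in the same libraries. The 10 smooth muscle and fibroblast markers summed to 28586 to 42747 scaled reads in the NOS-null group and 50373 to 56562 in the WT group. Macrophage and monocyte markers, 12 in number, summed to 12829 to 31267 against 9771 to 12524, and lymphocyte markers, 10 in number, to 538 to 943 against 1174 to 2155. The 10 endothelial markers summed to 31653 to 37222 against 30073 to 32699, and the 10 epithelial markers to 301296 to 330027 against 310436 to 388723. The 7 heart muscle markers summed to 2157 to 5080.2 against 2076 to 4096, and the 6 erythroid markers in the table to 14309 to 22977 against 9543 to 10654. The sums of the smooth muscle and fibroblast, macrophage and monocyte, lymphocyte and erythroid lists did not overlap between the groups. A sum is weighted to its most abundant genes, and single genes did not all follow it. Log2 changes were positive for 5 and negative for 5 lymphocyte markers, and for 10 and 2 macrophage and monocyte markers. They were positive for 3 and negative for 7 smooth muscle and fibroblast markers, and positive for all 6 erythroid markers. No marker in the table was at 0 in all libraries. Their part in the Egr1 difference was not tested, and in bulk lung RNA fewer cells of a type and less RNA per cell cannot be told apart. RNA integrity numbers were 7.8 to 8.2 over the 8 samples per the labels, which do not give them by sample.

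Egr2, known for myelination and for roles in macrophages and T cells, did not pass. It stood at 20.5, 57.3, 43.4 and 41.3 scaled reads in NOS-null replicates 1 to 4 and at 53.7, 45.0, 49.3 and 47.3 in WT replicates 1 to 4. Replicate 1 of NOS-null marrow was the lowest of the 8 and replicate 2 the highest, so the WT values lay inside the NOS-null range (log2 change −0.34, 95% interval −0.95 to 0.26, adjusted p = 0.436). Without NOS-null replicate 1 the change was −0.05. Egr3, a close relative of Egr1, rested on 0, 2, 1 and 3 reads in the NOS-null group and 3, 4, 5 and 1 in the WT group, too few for the filter. The 0 in NOS-null replicate 1 allows up to 3.08 scaled reads (3 reads, counting error only), so a difference was not detectable at this depth and no fold is given.

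**Figure D3:**
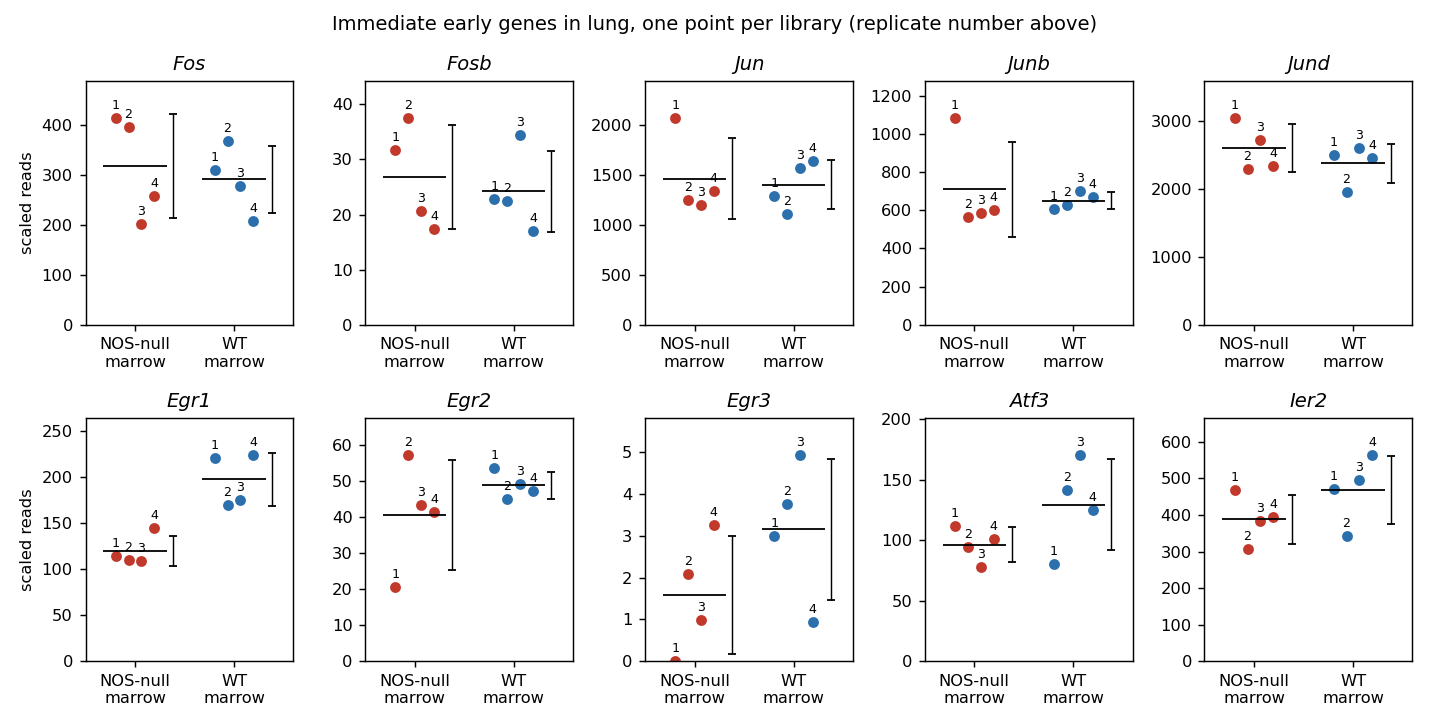
Scaled reads of the 10 genes in each library, red for NOS-null marrow and blue for WT marrow, with replicate numbers, the group mean (line) and SD (bar, n = 4). For Egr1 the 4 NOS-null points (109 to 145) lie below the 4 WT points (169.5 to 224), while the groups of the other genes overlap.

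Fos genes encode the AP-1 subunits that need a Jun partner to bind DNA. Fos (chromosome 12, 85473890 to 85477273) stood at 413, 396, 202 and 257 scaled reads in NOS-null replicates 1 to 4. Its WT marrow values were 310.0, 368, 278 and 208 in replicates 1 to 4. NOS-null replicates 1 and 2 were the highest of the 8 and replicate 3 the lowest, so the groups overlapped fully (means 317 ± 104 and 291 ± 66.8). The log2 change was 0.09 (95% interval −0.45 to 0.63, adjusted p = 0.836), and it was −0.06 without NOS-null replicate 1, −0.04 without replicate 2 and −0.32 without both. Fosb, whose splice form ΔFosB cannot be told from the full length at gene level, stood at 31.8, 37.5, 20.7 and 17.4 in the NOS-null group and 22.9, 22.5, 34.5 and 17.0 in the WT group. As for Fos, NOS-null replicates 1 and 2 exceeded replicates 3 and 4. The Fosb change was 0.12 (95% interval −0.53 to 0.78, adjusted p = 0.815), and it was 0.02 without NOS-null replicate 1 and −0.05 without replicate 2.

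Jun genes encode the AP-1 subunits that can also pair among themselves. Jun (chromosome 4, 95049034 to 95052222) stood at 2065, 1242, 1201 and 1332 scaled reads in the NOS-null group and 1285, 1111, 1569 and 1638 in the WT group, in replicates 1 to 4 of each. Junb (chromosome 8, 84974484 to 84978718), an AP-1 subunit prominent in myeloid and T cells, stood at 1084, 566, 586 and 604 in the NOS-null group. With WT marrow Junb was at 605, 629, 702 and 670.2. For both genes NOS-null replicate 1 was the highest library. For Junb the other 3 NOS-null libraries lay below all 4 WT libraries, but barely, with the closest at 603.6 against 605.1 scaled reads. How many other tested genes do so without that library was not counted. NOS-null replicate 1 is also the library with the high neutrophil marker sum, whose part in the Jun and Junb values was not tested.

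Over all 8 libraries the log2 change was 0.04 for Jun (95% interval −0.36 to 0.44, adjusted p = 0.904) and 0.07 for Junb (−0.34 to 0.48, adjusted p = 0.834). Without NOS-null replicate 1 they were −0.14 and −0.15, and the adjusted p remained above the threshold (0.539 and 0.285). Jund (chromosome 8, 70698949 to 70700616), often a brake on growth, varied least of the 3. It stood at 3038, 2289, 2722 and 2329.7 scaled reads in the NOS-null group and 2489.9, 1952, 2602 and 2452 in the WT group (log2 change 0.13, 95% interval −0.14 to 0.39, adjusted p = 0.511). The change was 0.05 without NOS-null replicate 1 and 0.04 without WT replicate 2. In the sum of the 3 Jun genes in FPKM, the share of Jund was 51.8% ± 4.80 in the NOS-null group and 50.5% ± 2.25 in the WT group. In NOS-null replicate 1 Jund held 45.6% and Junb 26.6%, the lowest Jund share and the highest Junb share of the 8 libraries.

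Atf3, a stress-induced zipper protein known to restrain inflammatory genes, stood at 112, 94.7, 77.9 and 101 scaled reads in the NOS-null group and 80.5, 141, 170.5 and 125 in the WT group. WT replicates 2, 3 and 4 exceeded all NOS-null libraries, and WT replicate 1 lay within them (log2 change −0.38, SE 0.22, adjusted p = 0.279). Ier2, a nuclear regulator of the immediate early class, stood at 468, 306, 385 and 394 in the NOS-null group and 470.0, 344, 495 and 564 in the WT group. Here 3 of 4 WT libraries lay above all NOS-null libraries (log2 change −0.26, SE 0.16, adjusted p = 0.319). With any 1 of the 8 libraries left out both changes kept their sign, from −0.59 to −0.23 for Atf3 and from −0.40 to −0.16 for Ier2, and neither passed.

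**Figure D4:**
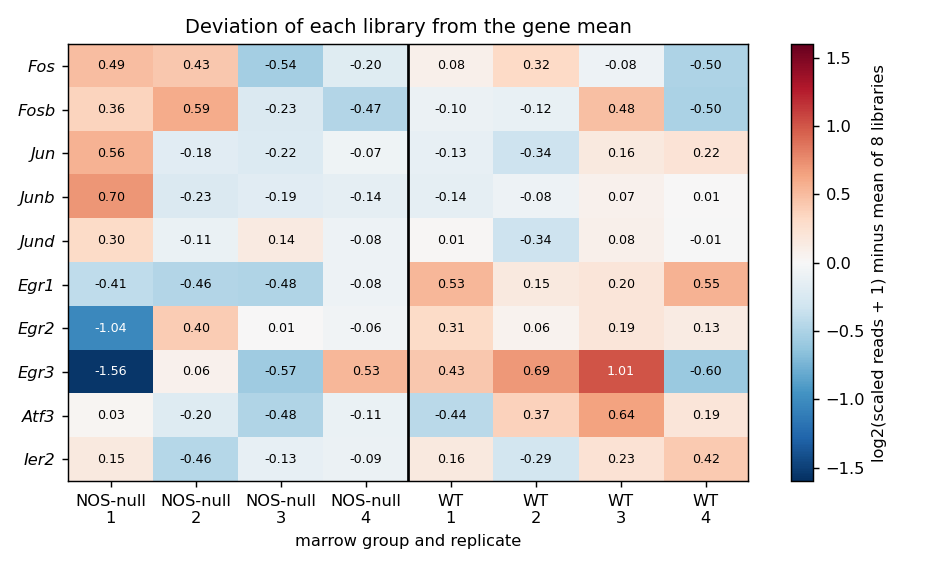
Deviation of each library from the gene's mean over the 8 libraries, in log2(scaled reads + 1), red above and blue below, rows for genes and columns for libraries. Egr1 is negative in the 4 NOS-null columns and positive in the 4 WT columns, while NOS-null replicate 1 holds the highest value of Fos, Jun, Junb and Jund and the lowest of Egr2 and Egr3.

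The genes did not rank the 8 libraries alike. NOS-null replicate 1 was highest for 4 of the 10 genes and lowest for 2, NOS-null replicate 3 was lowest for Fos, Egr1 and Atf3, and WT replicate 4 was highest for Egr1 and Ier2 but lowest for Fosb. Spread within groups, pooled over the 2 groups, was large for most. The within-group SD on the log2 scale was 0.45 for Fosb, 0.44 for Egr2, 0.43 for Fos, 0.36 for Atf3, 0.32 for Junb and 0.32 for Jun, and these 6 lay above the 75th percentile of all tested genes. Ier2 had 0.28, Egr1 0.20 and Jund 0.19, with Jund and Egr1 near the middle of all tested genes (percentiles 49.7 and 53.1). The pooled values hide unlike groups for some genes. Egr2 had 0.61 in the NOS-null group and 0.11 in the WT group, and Junb had 0.45 and 0.095. For Atf3 the WT group was the wider, with 0.22 in the NOS-null group and 0.46 in the WT group. Counting error alone gives an SD of about 0.29 for Fosb, 0.22 for Egr2, 0.11 for Egr1 and 0.08 for Fos at their mean read numbers.

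Whether Egr1 departed from the other genes within the same library was tested by its log2 ratio to each of the 8 others, a test chosen after the Egr1 values were seen. The ratio was lower in the NOS-null group, with no overlap, against Jun (difference −0.75), Junb (−0.78) and Jund (−0.84), each at p = 0.0286 in an exact two-sided permutation test, the smallest that 4 against 4 allows. After Benjamini-Hochberg adjustment over the 8 ratios these exact permutation values were 0.0762. Against Fos the difference was −0.80 (exact permutation p = 0.114), and against Egr2 −0.37, Atf3 −0.33 and Ier2 −0.45 (exact permutation p = 0.314, 0.371 and 0.0857). Against Fosb it was −0.84 (exact permutation p = 0.143). Each difference is the Egr1 log2 change (−0.71) minus that of the partner, which was 0.04 for Jun, 0.07 for Junb and 0.13 for Jund. Because Egr1 was already seen to be lower, a lower ratio to these 3 largely repeats the Egr1 difference. With the smallest p at 0.0286, the 3 ratios without overlap could not have passed after adjustment unless more ratios had reached that p. Neither the unadjusted nor the adjusted values therefore say anything either way about a change particular to Egr1.

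Other genes of the same response were taken from lists. Of 50 further immediate early genes tested (of 53), 1 fell (2.18% of all tested genes fell), 0 rose and 49 did not pass, with 11 higher and 5 lower at an unadjusted p under 0.05 (26.6% of all tested genes in either direction). Their median log2 change was 0.10, and 7 (14.0%) had groups that did not overlap, beside 17.1% of all tested genes. Of these 5 were higher and 2 lower, beside 7.82% and 9.29% of all tested genes. The gene that fell was Apold1, an endothelial early response gene. It stood at 83.0, 90.6, 77.9 and 77.2 scaled reads in the NOS-null group and 177, 219, 176 and 148 in the WT group, with every NOS-null value below every WT value (log2 change −1.11, SE 0.13, limma adjusted p = 0.00439). With any 1 of the 8 libraries left out Apold1 still passed (log2 change −1.20 to −1.01). The 3 most abundant genes that did not pass were Mcl1, a survival gene of the BCL2 family (4966 against 4153, adjusted p = 0.346), Klf6, a zinc finger factor (3776 against 3038, 0.108), and Thbs1, thrombospondin 1 (2169 against 4075, 0.0539). Klf6 and Thbs1 had groups that did not overlap, and Thbs1 passed without NOS-null replicate 3 (adjusted p = 0.0413) or replicate 4 (0.0429).

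Of 16 further AP-1 and zipper partner genes tested (of 17), none passed, with a median log2 change of 0.20. At an unadjusted p under 0.05, 3 were higher and 1 lower, beside 26.6% of all tested genes in either direction. The most abundant were Atf4, the factor of the integrated stress response (1629 against 1874 scaled reads, adjusted p = 0.241), the endoplasmic reticulum stress sensor gene Atf6 (994 against 838, 0.124) and the small Maf gene Mafk (909.5 against 739, 0.147). Upstream kinases and factors, 27 tested, had 1 gene that rose, 0 that fell and 26 that did not pass (median 0.04). Over all tested genes 1.87% rose and 2.18% fell. At an unadjusted p under 0.05, 6 of the 27 were higher and 2 lower, beside 26.6% of all tested genes in either direction. Groups did not overlap for 7 (25.9%), 5 higher and 2 lower, beside 17.1% of all tested genes. The gene that rose was Ep300, a histone acetyltransferase and coactivator of CREB and AP-1. It stood at 926, 844, 665 and 757 scaled reads in the NOS-null group and 465, 560.1, 524 and 619 in the WT group. Its log2 change was 0.55 (SE 0.12, limma adjusted p = 0.0361), and the call ended on leaving out NOS-null replicate 2 (adjusted p = 0.109), WT replicate 1, 2 or 3 (0.114, 0.0811 and 0.0914) and without NOS-null replicates 1 and 2 together (0.142). Without limma's trend it was 0.0695. Not passing were the ERK1 gene Mapk3 (2254 against 2518, adjusted p = 0.239), the p38 effector kinase gene Mapkapk2 (1409.9 against 1386, 0.913) and the ETS factor gene Elk3 (1191 against 1399.6, 0.170).

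Of the 4 regulators of these proteins tested, none passed, at either threshold. The Egr corepressor gene Nab1 stood at 1231 ± 75.4 in the NOS-null group and 1141 ± 44.9 in the WT group (adjusted p = 0.343). Cops5, which encodes a Jun-binding signalosome subunit, stood at 556 against 587 (adjusted p = 0.667), and Fbxw7, a ubiquitin ligase gene acting on Jun, at 381 against 328 (0.201). Of 20 late AP-1 and EGR target genes tested (of 21), 1 fell, 0 rose and 19 did not pass (median 0.02), beside 2.18% of all tested genes that fell. At an unadjusted p under 0.05, 3 were higher and 6 lower, beside 26.6% of all tested genes in either direction. Pdgfa, a growth factor gene with EGR sites known in its promoter, was at 499, 508, 704 and 632 scaled reads in the NOS-null group and 901, 781, 743 and 878 in the WT group. The groups did not overlap (log2 change −0.51, SE 0.12, limma adjusted p = 0.0481). This call was lost without NOS-null replicate 1 or 2 (adjusted p = 0.0669 and 0.136), without WT replicate 1, 2, 3 or 4 (0.144, 0.0925, 0.0836 and 0.0955) and without NOS-null replicates 1 and 2 together (log2 change −0.30, 0.183). It was also lost without the filter (0.0566), in FPKM (0.0510) and without limma's trend (0.0827). The most abundant late targets did not pass, among them fibronectin (Fn1, 5956 against 5526, adjusted p = 0.683), the adhesion gene Icam1 (4729.6 against 4462, 0.634) and Vegfa (4030.4 against 4713, 0.216).

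**Figure D5:**
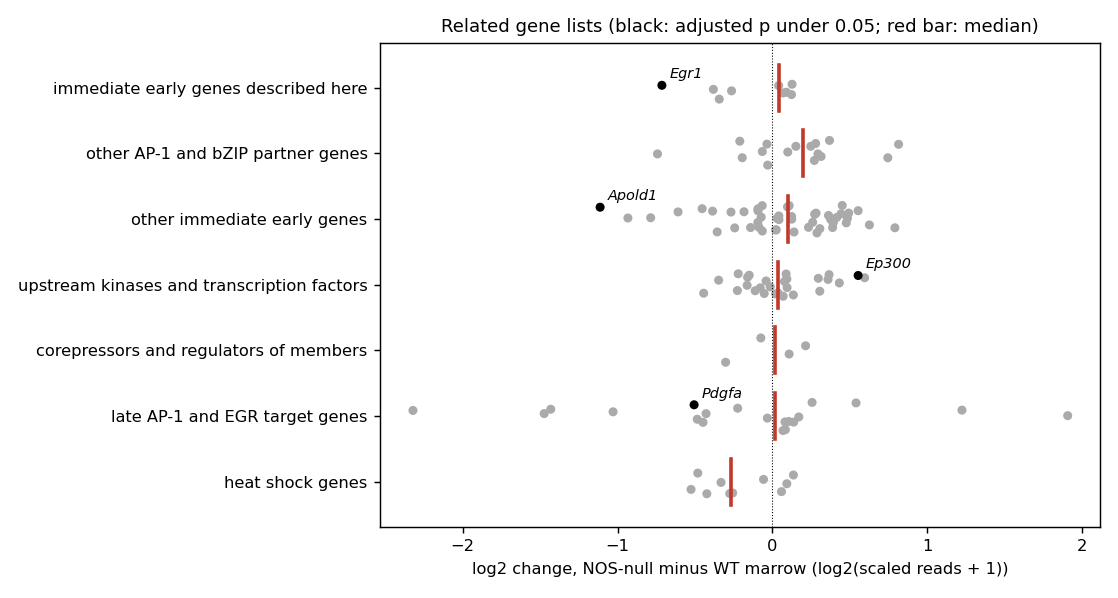
Log2 change (NOS-null minus WT marrow) of every tested gene in 7 lists, 1 point per gene, black where the adjusted p is under 0.05, with the list median as a red bar. The labelled genes are Egr1 (−0.71), Apold1 (−1.11), Ep300 (0.55) and Pdgfa (−0.51), and medians lie between −0.27 and 0.20.

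Genes whose library profile was most like the mean profile of the 9 tested genes were sought among 10747 others with a mean of at least 50 scaled reads. Likeness was the root mean square difference of gene-centred log2 values over the 8 libraries. The 5 closest were Khdrbs1 (0.045), Twf2 (0.065), Dph3 (0.065), Galnt7 (0.065) and Mrps33 (0.067). The mean profile itself ran from −0.24 in NOS-null replicate 3 to 0.22 in WT replicate 3. It was flatter than single genes, which partly cancelled, as with Junb at 0.70 and Egr2 at −1.04 in NOS-null replicate 1. A gene close to this mean need not follow any of the 9.

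Gene models of 4 of the 10 overlap another gene on the opposite strand in GENCODE M21, which makes their values uncertain because strand-specific counting is not given in the sources used here. These are Jun with Junos, Junb with Prdx2, Jund with Gm11175 and Atf3 with Gm24748. No gene overlaps Egr1, Fos, Fosb, Egr2, Egr3 or Ier2 there.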

How the data were processed

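Libraries were made from mRNA of lung and sequenced as 75 bp single reads, per the labels. Per the submitters' processing notes, the tools were CASAVA 1.8.2, TopHat2 2.0.13, Bowtie2 2.2.3, SAMtools 0.1.19 and Cufflinks 2.2.1, with build mm10. Gene annotation, strand setting and filters were not given in the sources used here. As deposited, the authors' files are a table of signal values, read counts divided by 1 size factor per library, and a table of FPKM values. Of positive values 98.6 to 98.9% lay within 0.05 of a whole multiple of the value of 1 read (0.937 to 1.09), which was not enough to recover counts for all genes, so no count test was run.

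Groups came from the sample titles. In the series' design text both groups carry the NOS-null name. Values were log2-transformed after adding 1, and limma 3.58.1 was run on the 14008 genes that reached 10 in 4 or more libraries (R 4.3.3, trend on), with Benjamini-Hochberg adjustment and a threshold of 0.05. FPKM served for levels per length and, after adding 0.1, for an alternative. The ratio tests used scipy 1.17.1. The limma step was tested on simulated data. The ratio tests and the genes most like Egr1 were chosen after its values were seen.

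The 10 genes and the lists were chosen with earlier results of these data known, so no list is independent support. Named by rule were the 10 genes, called genes of each list (up to 6 by smallest p per direction), the 3 most abundant that did not pass, and the 5 genes most like the mean profile. Alternatives were other scalings, pseudocounts, filters, limma settings, the FPKM table, a replicate block and leaving out libraries. Replicate numbers are shared between groups in the titles, which do not say what they mark. Intervals are 95% intervals from limma. Counting limits cover counting error only.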

Additional observations from a re-analysis of the deposited data

Results flagged for a closer look

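In 6 of 62 groups of 4 libraries (31 named genes, 2 groups each) 1 library lay far from the other 3, with a gap to its nearest neighbour above Dixon's 95% critical value as a share of the group's range. Chance flags about 1 in 20 groups. Among the 10 immediate early genes there were 3 such groups of 20. Jun reached 2065 scaled reads in NOS-null marrow replicate 1, against 1201 to 1332 in replicates 2 to 4. Junb reached 1084 in the same library, against 566 to 604. Egr1 reached 145 in NOS-null marrow replicate 4, against 109 to 115 in the other 3, and still lay below the lowest WT marrow library (169.5). Of the other named genes, Mcl1 reached 6882 in NOS-null marrow replicate 1, against 4280.4 to 4353. Mapk3 was at 2000.2 in NOS-null marrow replicate 2, against 2307 to 2366 in the others. Nab1 was at 1208 in WT marrow replicate 3, against 1116 to 1121 in the others. The cause of these values was not tested.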

How the results depend on the processing

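No alternative made any of the 9 tested genes pass as higher, and Egr3 was fitted without the filter alone and did not pass there. Egr1 was lower in all 19 alternatives and passed in 13 (log2 change −0.81 to −0.63). The count of genes called lower among the 10 was 0 without NOS-null marrow replicates 1 and 2 together, and 0 to 1 without 1 library. The count over all tested genes was 567, and 185 without limma's trend, 135 with a replicate block, 181 without NOS-null marrow replicates 1 and 2 together and 71 to 798 without 1 library (95 without NOS-null marrow replicate 2, and 71, 81, 87 and 233 without WT marrow replicates 1 to 4). The other immediate early genes called higher numbered 1 (Tob1) with a filter at 50 and with robust limma. Those called lower numbered 2 with a replicate block (Apold1 and Plk2) and 1 to 2 without 1 library. Changes near 0 turned sign. Under quantile normalization Jun was at −0.0083. Without NOS-null marrow replicates 1 and 2 together Fos was at −0.32, Fosb at −0.29, Jun at −0.13 and Junb at −0.13. Without 1 library Fos ran from −0.060 to 0.29, Fosb from −0.054 to 0.30, Jun from −0.14 to 0.12 and Junb from −0.15 to 0.16. The cause was not tested. Whether same-numbered replicates of the 2 groups share more than a number is not settled by the correlations of their deviations. These were 0.04, 0.17, −0.00 and 0.15 for numbers 1 to 4. NOS-null replicates 2 and 4 correlated best with the WT replicate of their own number. NOS-null replicate 1 correlated best with WT replicate 3 (0.11), and NOS-null replicate 3 with WT replicate 4 (0.07). With the replicate block Egr1 passed (adjusted p = 0.0412), and Ep300 (0.0696) and Pdgfa (0.0776) did not. Count tests (edgeR, DESeq2) were not run because whole reads were not recovered for all genes. Fosb and Egr2 gave no value with a filter at 50. Depth limits Egr3.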

Other observations

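The 10 heat shock genes listed as a neighbouring fast response were all tested, and none passed limma's adjusted threshold, with 0 higher and 2 lower at an unadjusted p under 0.05, beside 26.6% of all tested genes in either direction. Their median log2 change was −0.27 (3 positive, 7 negative), and their sum was 20472 to 28320 scaled reads in the NOS-null group and 26720.3 to 34068 in the WT group. The 3 most abundant were Hspa8, a constitutive chaperone gene (13724 against 16546, adjusted p = 0.173), Hsp90aa1 (5787.5 against 7288.5, 0.110) and Dnaja1 (2159.7 against 2523, 0.443). Egr4, the remaining EGR gene, was listed at 0 in all 8 libraries.

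The genes with the profile nearest to that of Egr1 over the 8 libraries, a comparison chosen after the Egr1 values were seen, were Nol12 (root mean square difference 0.11 in log2), Haus7 (0.12), Mvk (0.14), Speg (0.14) and Echdc1 (0.15). Nol12, a nucleolar protein gene, stood at 123 ± 16.2 scaled reads in the NOS-null group and 196 ± 26.6 in the WT group. Mvk, the mevalonate kinase gene of sterol synthesis, stood at 152 ± 14.2 against 219.6 ± 18.3, and both were chosen for this profile, so their difference between groups is a description.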
